A study of Mus musculus with 15 samples.

Results

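The genes described are 36 members of the type I and type III interferon response, taken by symbol from the deposited table of 26844 genes. All 36 were in that table and all 36 passed the filter on low values, a normalised count of at least 10 in at least 3 libraries. They were measured by RNA-seq in the distal jejunum of male C57BL/6 mice aged 13 to 15 weeks. WT mice were compared with Aster-B/C global knockout mice (KO), in which Gramd1b and Gramd1c, the genes of 2 sterol transfer proteins, are targeted. Every mouse received a low cholesterol diet with 0.08% cholesterol, and in one of the 2 diet arms this diet also held 0.01% ezetimibe, a drug that binds the intestinal cholesterol importer NPC1L1. The groups held 4 libraries (WT control), 4 libraries (WT ezetimibe), 3 libraries (KO control) and 4 libraries (KO ezetimibe). The knockout is global, so every cell of the tissue carries it, and the labels do not say whether each library is a separate mouse; p-values measure the spread between these libraries, which may in part be technical.

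Type I interferons signal through the receptor IFNAR1/IFNAR2, and type III interferons, to which gut epithelium is a main responder, through IFNLR1/IL10RB. Both receptors activate the kinases JAK1 and TYK2, which leads to the assembly of ISGF3, a complex that holds STAT2 and IRF9. This complex binds the interferon-stimulated response element in the promoters of a shared set of antiviral genes. Several of its products, among them STAT2, IRF9 and IRF7, are themselves parts of the pathway. In the intestine a low level of such genes is known to be present without overt infection.

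The core of that element can be read in the promoters of many of the genes. Promoter windows running from 250 bases before to 50 bases after the annotated start (RefSeq, build GRCm38.p6) were available for 26 of the 36 genes. The letters GAAANNGAAA, or TTTCNNTTTC where the element lies on the other strand, were found in 13 of these 26 genes (50%), compared with 3.99% of the 27025 genes in the same table. Matches may overlap each other, and a match describes letters only. These windows are shown because the genes belong to the families that the diet comparison turns on. Capitals mark the matches.
Isg15, chr4:156200855-156200916, reverse strand: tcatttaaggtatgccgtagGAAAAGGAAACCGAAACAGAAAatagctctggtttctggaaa
Stat2, chr10:128270256-128270305, forward strand: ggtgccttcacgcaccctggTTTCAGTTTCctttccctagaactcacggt
Ifit1, chr19:34640765-34640833, forward strand: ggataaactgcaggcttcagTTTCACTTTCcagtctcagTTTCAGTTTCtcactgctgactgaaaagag
Ifit3, chr19:34583353-34583436, forward strand: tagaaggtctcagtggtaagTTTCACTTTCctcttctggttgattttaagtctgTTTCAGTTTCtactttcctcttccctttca
Oas1a, chr5:120907526-120907565, reverse strand: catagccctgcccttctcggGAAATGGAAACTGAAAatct
Oas3, chr5:120777705-120777754, reverse strand: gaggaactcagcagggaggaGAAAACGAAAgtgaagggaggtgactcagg
Isg15 held 3 overlapping matches between 78 and 57 bases before its start. The stretch shown for Ifit3 also occurs, letter for letter, in the promoter of its near-identical copy Ifit3b, at chr19:34607749-34607832 on the forward strand. Ifih1 and Eif2ak2 had their only match after the start site. No match was found in the windows of 13 genes, including Lgals3bp, Ifi44, Oasl2, Irf7 and Irf9. The median log2 difference between ezetimibe and control diet was 1.17 in WT and 0.97 in KO for the 13 genes with a match, 0.70 in both genotypes for the 13 without one, and 1.23 and 0.95 for the 10 genes with no window. The ranges overlapped widely. In WT they were 0.56 to 1.77 with a match and 0.38 to 2.22 without one, and in KO 0.61 to 1.59 and 0.18 to 2.35. Whether a match goes with the size of the difference was not tested.

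**Figure D1:**
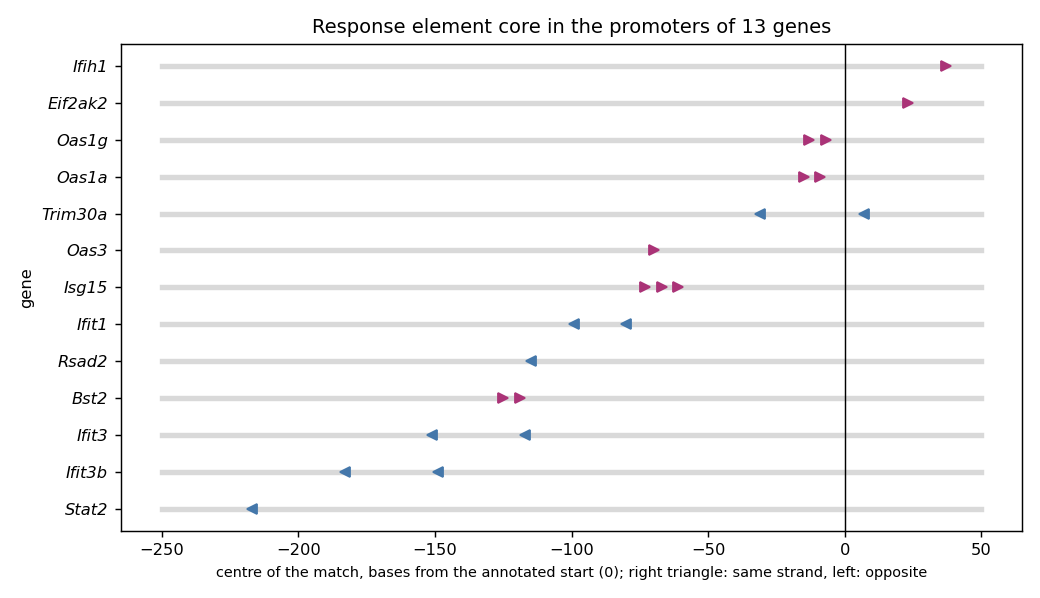
Position of each match to the response element core in the promoter windows of 13 interferon response genes. The x axis is the distance in bases from the annotated start; each grey bar is the window searched, triangles to the right mark a match on the strand of the gene and triangles to the left one on the opposite strand. Matches lie before the start in 11 genes and only after it in Ifih1 and Eif2ak2.

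Libraries were sequenced to between 13855034 and 19307079 reads assigned to genes. Gramd1c lay between 71.8 and 194 normalised counts in the 7 KO libraries and between 1059 and 1845 in the 8 WT libraries, and Gramd1b between 962 and 2086 in KO and between 2274 and 4046 in WT. Neither gene overlapped between the genotypes, and reads of Gramd1b remained in KO; the deleted exons are not named in the labels. Abca1, an LXR target that falls when less sterol enters the cell, separated the diets in both genotypes, at 1446 to 2299 in WT control, 128 to 213 in WT ezetimibe, 439 to 641 in KO control and 84.7 to 115 in KO ezetimibe. KO ezetimibe replicate 4 had 98.0, within the range of the other ezetimibe-fed KO libraries. Across the interferon response genes, however, that library stood apart from its group.

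The mean level of the 36 genes, on the scale of log2(normalised count + 1), was 8.91, 8.42, 8.79 and 8.40 in the WT control libraries and 9.25, 9.74, 9.86 and 9.73 in the WT ezetimibe libraries. It was 8.25, 8.02 and 8.71 in the KO control libraries and 9.50, 9.61, 9.64 and 8.53 in the KO ezetimibe libraries. All WT ezetimibe libraries and 3 of the 4 KO ezetimibe libraries lay above every control-diet library, and KO ezetimibe replicate 4 lay among the control-diet libraries. It was the lowest of its group for 35 of the 36 genes, and it exceeded every KO control library for 7 genes, compared with 34, 35 and 35 genes for replicates 1, 2 and 3. WT ezetimibe replicate 1 was the lowest of its group for 29 genes. Group means were 8.63 ± 0.26 (SD, n = 4) in WT control, 9.64 ± 0.27 (n = 4) in WT ezetimibe, 8.33 ± 0.35 (n = 3) in KO control and 9.32 ± 0.53 (n = 4) in KO ezetimibe. The spread within groups was wider for these genes than for the median gene: the median SD on the log2 scale was 0.35, 0.34, 0.47 and 0.55 in these 4 groups, against 0.25, 0.20, 0.23 and 0.24 over all 14299 genes tested. In a whole-tissue sample, a change in the share of responding cells and a change in RNA per cell cannot be told apart.

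**Figure D2:**
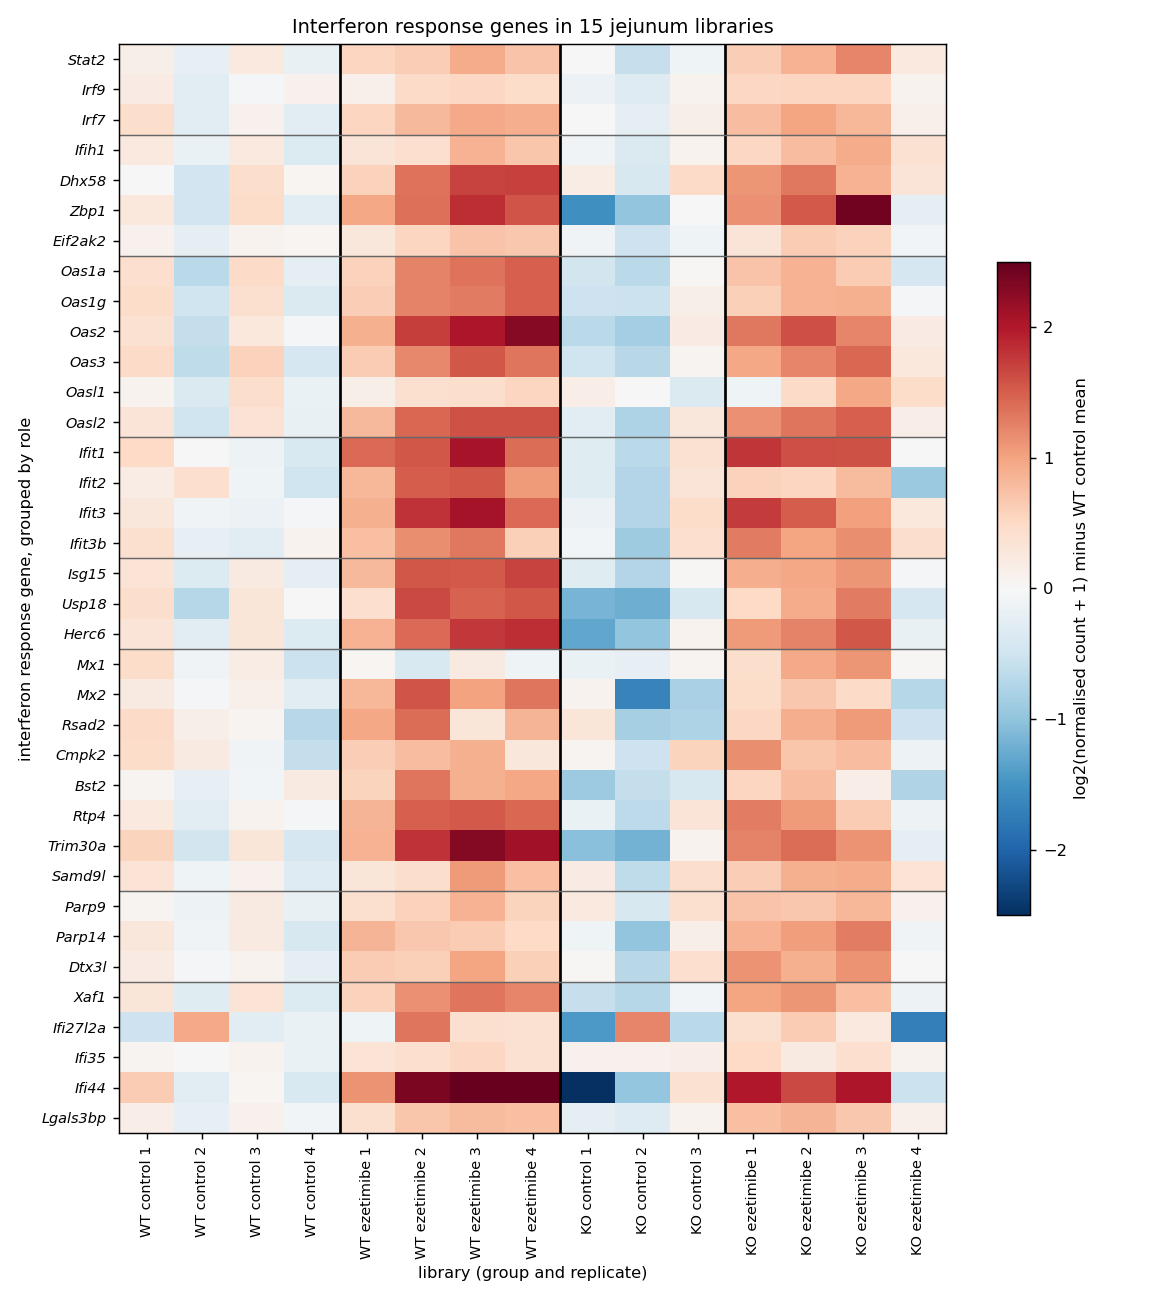
Level of each of the 36 genes (rows, grouped by role) in each of the 15 libraries (columns, by group and replicate), as log2(normalised count + 1) minus the mean of the 4 WT control libraries; colours end at −2.5 and 2.5. Most genes are red in the WT ezetimibe libraries and in KO ezetimibe replicates 1 to 3, and near white or blue in KO ezetimibe replicate 4.

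With ezetimibe in the diet, nearly all the interferon response genes had a higher group mean of log2 level than on the control diet, in both genotypes. The median difference over the 36 genes was 1.01 on the log2 scale in WT and 0.88 in KO, while that over all genes tested was −0.0096 and 0.0056. The 36 genes were chosen with earlier results of these data known. Comparisons with all genes, here and below, therefore describe the set and are not independent support. The difference, between group means of log2(normalised count + 1), was above 0 for 35 of 36 genes in WT, Mx1 being the exception, and for 36 of 36 in KO, compared with 47.7% and 50.7% of all genes. Differences ran from −0.05 (Mx1) to 2.22 (Ifi44) in WT and from 0.18 (Ifi35) to 2.35 (Ifi44) in KO. Such a difference, given below as the log2 fold change, need not equal the ratio of mean counts: Ifi27l2a in KO, at 0.19 ± 0.64 (SE) on the log2 scale, had mean normalised counts of 14.1 ± 14.5 (SD, n = 3) on the control diet and 14.0 ± 7.50 (n = 4) with ezetimibe. Over the same comparisons, 14 T and NK cell markers had median log2 differences of 0.44 in WT and 0.52 in KO with none called, and their part in the result was not tested.

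Few genes passed the test within a single genotype. After Benjamini-Hochberg adjustment over all 14299 genes, limma called 1 of the 36 in WT, Isg15, beside 0.217% of all genes, and 2 in KO, Stat2 and Lgals3bp, beside 0.727%. At an unadjusted p under 0.05, 33 genes were higher in WT (3.14% of all genes were) and 32 were higher in KO (11.8%). The WT ezetimibe libraries all exceeded the WT control libraries for 28 of the 36 genes, compared with 2.26% of all genes. In KO this held for 6 genes (8.64% of all genes): Stat2, Ifih1, Eif2ak2, Oas3, Ifit3b and Lgals3bp. When KO ezetimibe replicate 4 was left out, the libraries of the 2 diets were separate for 34 genes (13.9% of all), and limma called 26 (3.2% of all) with a median difference of 1.14. Without KO control replicate 3, the highest of its group for 30 genes, limma called 19 (3.1% of all). The count in KO fell to 0 without KO control replicate 1 or 2 or KO ezetimibe replicate 2 or 3 (0.0351% to 0.112% of all genes). In WT the call of Isg15 was lost, leaving 0 (0.119% to 0.162% of all genes), without any 1 of WT control replicates 2, 3 and 4 or WT ezetimibe replicates 2, 3 and 4. The WT count was 6 without WT ezetimibe replicate 1 (0.239%) and 2 without WT control replicate 1 (0.218%). Libraries of the other genotype enter the shared estimate of the spread, and leaving them out, tried after seeing the data, also moved the counts. In WT, Isg15 was called without any 1 of the 7 KO libraries, and the count was 14 without KO ezetimibe replicate 4 (0.421% of all genes), 4 without KO control replicate 3 (0.253%), 3 without KO control replicate 2 (0.246%) and 3 without KO ezetimibe replicate 1 (0.238%). In KO the count was 0 without any 1 of the WT ezetimibe libraries (0.204% to 0.302% of all genes), 1 without WT control replicate 2 or 3 (0.408% and 0.344%) and 3 without WT control replicate 1 (1.19%). DESeq2, run on reads recovered from the normalised counts, called 22 genes in WT (0.65% of all genes) and 25 in KO (8.08%), 17 of them in both.

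Averaging the diet difference over both genotypes, a comparison chosen after seeing the data, called 30 of the 36 genes with limma, all higher with ezetimibe, compared with 2.48% of all genes in either direction and 1.74% higher. The median was 0.95. edgeR and limma-voom also called 30 genes each (2.57% and 2.18% of all genes), and DESeq2 called 34 (6.73%). Leaving out 1 library at a time gave between 21 and 33 calls, beside 1.05% to 4.04% of all genes. The 6 genes that did not pass with limma were Rsad2 at 0.90 ± 0.26 (log2, SE, adjusted p = 0.0732), Ifit2 at 0.86 ± 0.26, Oasl1 at 0.45 ± 0.15, Cmpk2 at 0.61 ± 0.20, Mx1 at 0.34 ± 0.17 and Ifi27l2a at 0.35 ± 0.43. For single genes, "rose" refers to this averaged comparison unless a genotype is named.

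**Figure D3:**
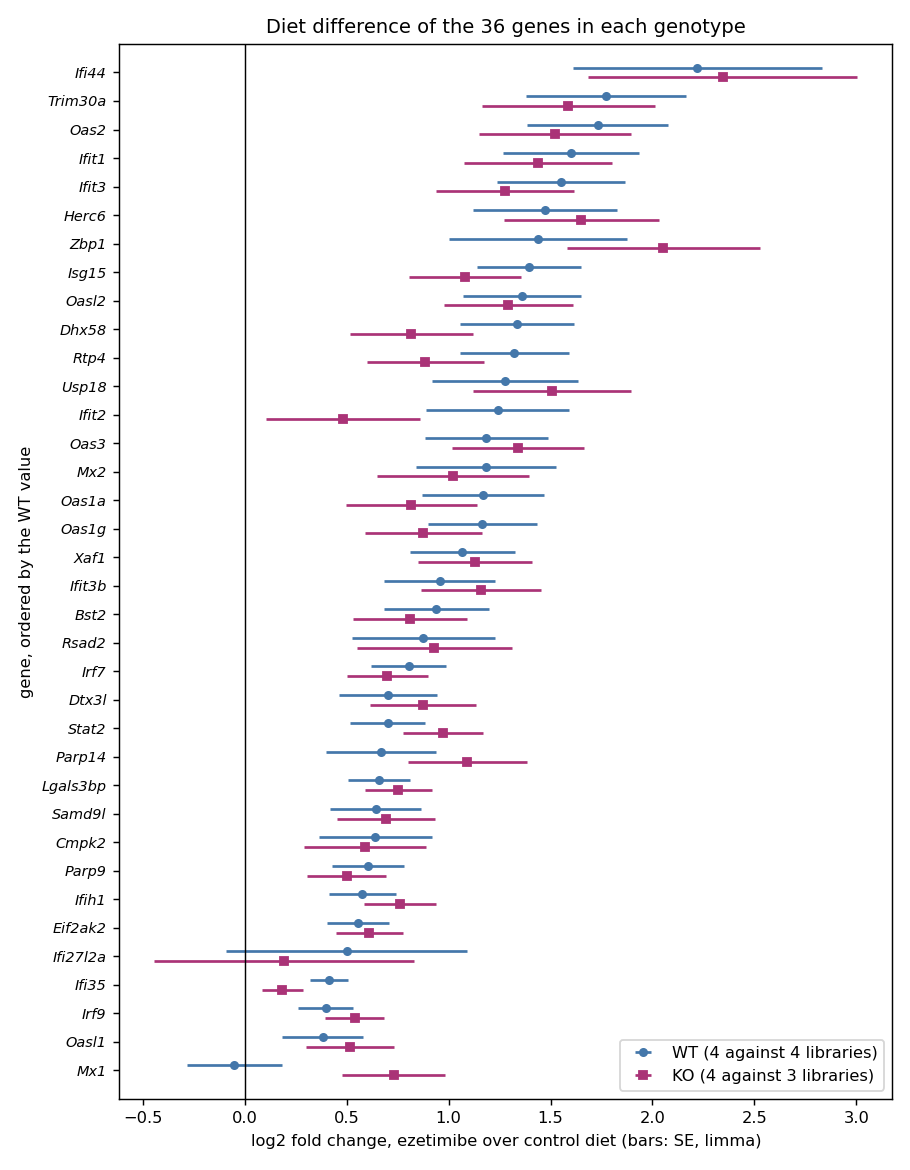
Log2 fold change between ezetimibe and control diet for each of the 36 genes, in WT (circles, 4 against 4 libraries) and KO (squares, 4 against 3 libraries), with the SE from limma as bars and genes ordered by the WT value. Values lie to the right of 0 in both genotypes for every gene but Mx1, which was −0.05 in WT and 0.73 in KO, and Ifi44 has the highest value in each genotype.

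Among the transcription factors, all 3 members rose, with medians of 0.70 in WT and 0.70 in KO. Stat2, a subunit of the DNA-binding complex ISGF3 (chr10:128270559-128292849, forward strand, GRCm38), had normalised counts of 1259, 988, 1363 and 1007 in WT control and 1659, 1761, 2172 and 1879 in WT ezetimibe, against 1129, 770.0 and 1067 in KO control and 1761, 2100.3, 2671 and 1361 in KO ezetimibe. The diets did not overlap in either genotype. The log2 fold change was 0.97 ± 0.20 (SE, limma adjusted p = 0.0431) in KO and 0.70 ± 0.18 (adjusted p = 0.256) in WT. The KO call was lost without KO control replicate 1 or 2, without KO ezetimibe replicate 2 or 3, without any 1 of the WT ezetimibe libraries, with limma-voom (adjusted p = 0.0505) and in a fit of the compared groups alone (adjusted p = 0.129). Irf9, the DNA-contact subunit of the same complex, averaged 795 ± 111 (SD, n = 4) in WT control, 1045 ± 127 (n = 4) in WT ezetimibe, 728 ± 105 (n = 3) in KO control and 1059 ± 148 (n = 4) in KO ezetimibe. Irf7, a factor that amplifies interferon gene transcription, averaged 2079.9 ± 507, 3579.6 ± 432, 2015 ± 259.8 and 3334 ± 783 in the same groups. Both rose by less than 1 log2 unit, at 0.47 ± 0.10 and 0.75 ± 0.14 (SE).

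All 4 sensors of viral nucleic acid rose, with medians of 0.96 in WT and 0.79 in KO. Zbp1, a sensor of Z-form nucleic acid that can trigger necroptosis, had normalised counts of 593, 352, 676 and 409.6 in WT control and 959, 1284, 1754 and 1456 in WT ezetimibe, against 169, 247 and 489.6 in KO control and 1087, 1415, 2624 and 414 in KO ezetimibe. WT diets were separate, whereas KO ezetimibe replicate 4 lay below KO control replicate 3 and KO ezetimibe replicate 3 was the highest of all 15 libraries. Its log2 fold change was 1.44 ± 0.44 in WT and 2.05 ± 0.47 in KO (SE, limma adjusted p = 0.441 and 0.0537). Ifih1, which encodes the double-stranded RNA sensor MDA5, had 2297, 1741, 2303 and 1539.6 in WT control and 2414, 2595, 3547 and 3159 in WT ezetimibe, against 1837, 1515 and 2064 in KO control and 2766, 3309.7, 3679 and 2521 in KO ezetimibe. Every ezetimibe library exceeded every control library of its genotype, and the difference was 0.58 ± 0.16 in WT and 0.76 ± 0.18 in KO (limma adjusted p = 0.38 and 0.0543). Dhx58, which encodes LGP2, a regulator of the RIG-I-like sensors, had 97.4, 69.9, 133 and 101 in WT control and 147, 252, 319 and 321 in WT ezetimibe, against 111, 74.2 and 136 in KO control and 211, 247, 179.8 and 122 in KO ezetimibe. Its diets were separate in WT and overlapped in KO through replicate 4, at 1.33 ± 0.28 and 0.82 ± 0.30 (limma adjusted p = 0.0783 and 0.129). Eif2ak2, the double-stranded RNA-activated kinase PKR, was 0.56 ± 0.15 in WT and 0.61 ± 0.16 in KO.

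The OAS family makes oligoadenylates that activate RNase L. Of its 6 members, 5 rose and Oasl1 did not pass, and the family medians were 1.18 in WT and 1.08 in KO. Oas2 had normalised counts of 92.6, 46.3, 84.5 and 68.3 in WT control and 132, 237, 291 and 344 in WT ezetimibe, against 43.8, 38.9 and 81.2 in KO control and 177, 217, 166 and 81.0 in KO ezetimibe. It showed the largest difference of the family in both genotypes, 1.73 ± 0.34 in WT and 1.52 ± 0.37 in KO (SE, limma adjusted p = 0.0587 and 0.0553), with KO ezetimibe replicate 4 just below KO control replicate 3. Oas3 had 1181, 546, 1268 and 634 in WT control and 1321, 1952, 2494 and 2158 in WT ezetimibe, against 603, 521 and 895 in KO control and 1659, 1968, 2302 and 1014 in KO ezetimibe. Its diets did not overlap in either genotype, with differences of 1.18 ± 0.30 and 1.34 ± 0.32 (limma adjusted p = 0.239 and 0.0553). Oas1a had 592, 278, 624 and 382 in WT control and 668, 1059, 1144 and 1249.7 in WT ezetimibe, against 322, 279 and 452 in KO control and 726, 809, 690.0 and 333 in KO ezetimibe. It was 1.17 ± 0.30 in WT and 0.82 ± 0.32 in KO, separate between diets in WT by the margin between 624 and 668. Oas1a and Oas1g are near-identical copies whose log2 levels had a Pearson r of 0.98 over the 15 libraries, and their reads may be split or shared by the counting, so their separate values are uncertain. Oasl2, a family member with ubiquitin-like domains, was 1.36 ± 0.29 and 1.29 ± 0.31 in WT and KO, and Oasl1, a translational repressor of Irf7, 0.38 ± 0.20 and 0.52 ± 0.22.

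IFIT proteins bind foreign RNA, and IFIT1 recognises RNA whose cap lacks host methylation. Of the 4 members, 3 rose, and the medians were 1.40 in WT and 1.22 in KO. Ifit1 had normalised counts of 1086, 766, 705 and 588 in WT control and 2041, 2239, 3184 and 2011 in WT ezetimibe, against 622, 479 and 999 in KO control and 2653, 2329, 2311 and 757 in KO ezetimibe. WT diets were far apart, while KO ezetimibe replicate 4 fell between KO control replicates 1 and 3. The differences were 1.60 ± 0.34 in WT and 1.44 ± 0.36 in KO (SE, limma adjusted p = 0.0783 and 0.0574). Ifit3 had 194, 149, 144 and 155 in WT control and 296, 559, 679 and 429 in WT ezetimibe, against 144, 95.9 and 219.9 in KO control and 538, 459, 326 and 193 in KO ezetimibe. It was 1.55 ± 0.31 in WT and 1.28 ± 0.34 in KO (limma adjusted p = 0.0631 and 0.0614), and KO ezetimibe replicate 4 was again below the highest KO control library. Its copy Ifit3b, at 3.07 to 6.08 times fewer normalised counts per library, was 0.96 ± 0.27 and 1.16 ± 0.29, and reads shared between the copies make both values uncertain. Ifit2, the least abundant per length of the 36 in every group, had 33.4, 39.1, 26.8 and 20.4 in WT control and 52.8, 84.5, 86.8 and 62.2 in WT ezetimibe, against 23.5, 17.2 and 36.8 in KO control and 43.9, 42.9, 51.4 and 14.9 in KO ezetimibe. KO ezetimibe replicate 4 was the lowest of all 15 libraries for this gene, and its diet difference was 1.24 ± 0.35 in WT and 0.48 ± 0.38 in KO (limma adjusted p = 0.38 and 0.468).

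ISG15 is a ubiquitin-like protein that is attached to other proteins, HERC6 is its main ligase in mice, and USP18 removes it and also blocks IFNAR2 signalling. All 3 genes rose, with medians of 1.40 in WT and 1.51 in KO. Isg15 (chr4:156199424-156200818, reverse strand, GRCm38) had normalised counts of 689, 429, 634 and 465 in WT control and 950.4, 1601, 1569 and 1758 in WT ezetimibe, against 439, 325 and 553 in KO control and 1026, 1059, 1173 and 533 in KO ezetimibe. WT diets were separate by a wide gap, and KO ezetimibe replicate 4 lay just under KO control replicate 3. Isg15 was the one member that passed in WT, at 1.40 ± 0.26 (SE, limma adjusted p = 0.0275), and it was 1.08 ± 0.28 in KO (adjusted p = 0.0574). Herc6 had 392, 261, 388 and 248 in WT control and 577, 839.5, 1081 and 1128 in WT ezetimibe, against 127, 158 and 336 in KO control and 659.7, 744, 921 and 278 in KO ezetimibe. It was 1.47 ± 0.35 in WT and 1.65 ± 0.38 in KO (limma adjusted p = 0.178 and 0.0537), with the same KO library inside the control range. Usp18 had 368, 164, 334 and 269 in WT control and 364, 856, 757 and 795 in WT ezetimibe, against 120.1, 116 and 206 in KO control and 383, 516, 674 and 203 in KO ezetimibe. It was 1.27 ± 0.36 in WT and 1.51 ± 0.39 in KO (limma adjusted p = 0.38 and 0.0574), and in WT the lowest ezetimibe library lay just under the highest control library.

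**Figure D4:**
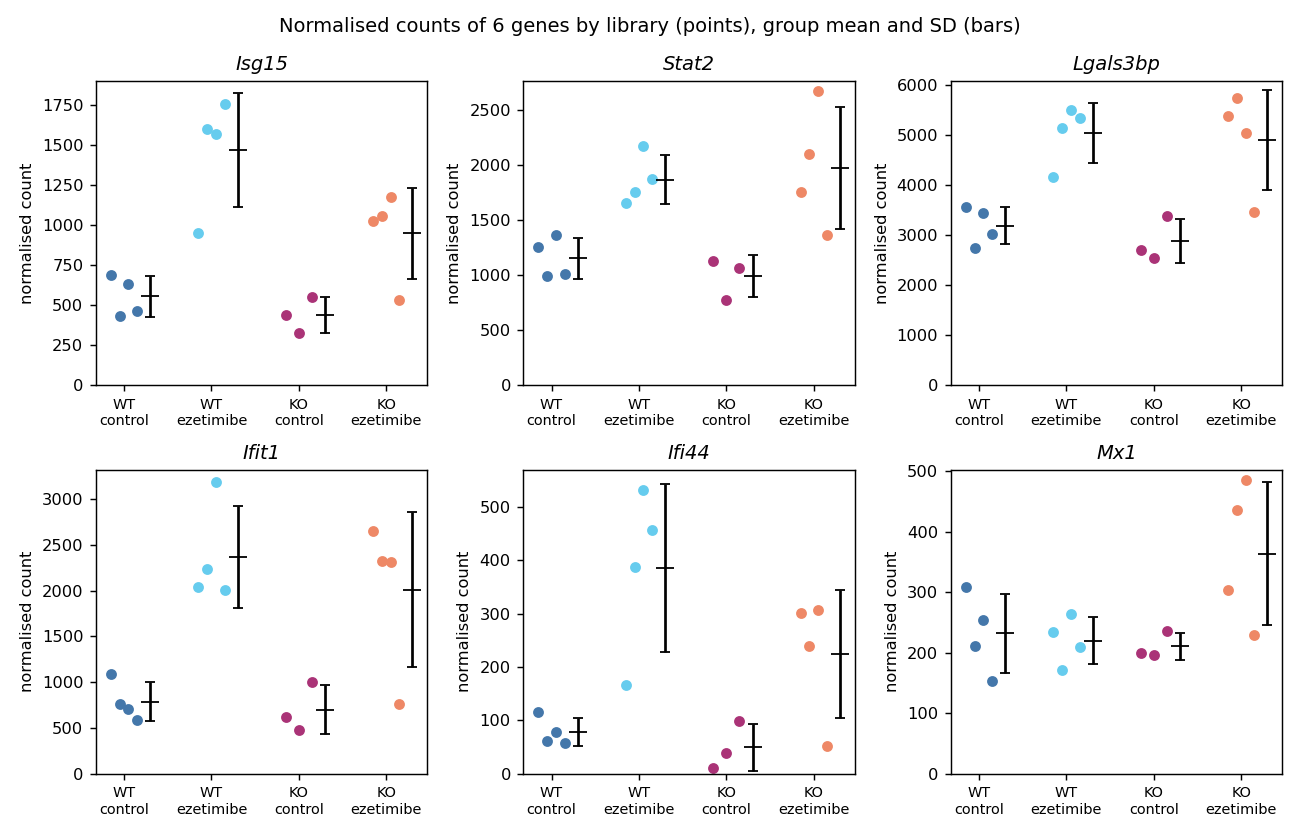
Normalised counts of Isg15, Stat2, Lgals3bp, Ifit1, Ifi44 and Mx1 in each library (points) of the 4 groups, with the group mean and SD as bars. For Isg15 the WT ezetimibe libraries lie between 950.4 and 1758, above every WT control library; the low point of KO ezetimibe in each panel is replicate 4.

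Of the 8 Mx GTPases and other antiviral effectors, 5 rose, and Mx1, Rsad2 and Cmpk2 did not pass. Their medians were 0.91 in WT and 0.85 in KO. Mx1, of which C57BL/6 mice carry a defective allele, had normalised counts of 308, 211, 254 and 154 in WT control and 233, 172, 264 and 209 in WT ezetimibe, against 199.6, 195 and 236 in KO control and 304, 436, 486 and 229 in KO ezetimibe. The WT libraries of both diets overlapped, and 3 of 4 KO ezetimibe libraries were above every library of the other groups, save that WT control replicate 1 exceeded the lowest of the 3. The difference was −0.05 ± 0.23 in WT and 0.73 ± 0.25 in KO (SE, limma adjusted p = 0.999 and 0.111). Mx2, the neighbouring gene, had 49.7, 40.9, 46.4 and 34.6 in WT control and 76.0, 128, 85.8 and 109.6 in WT ezetimibe, against 45.4, 12.7 and 23.8 in KO control and 58.9, 68.6, 59.5 and 25.6 in KO ezetimibe. It was separate between diets in WT, at 1.18 ± 0.35, and overlapped in KO, at 1.02 ± 0.37 (limma adjusted p = 0.397 and 0.126); over the 15 libraries the log2 levels of Mx1 and Mx2 had a Pearson r of 0.18. Trim30a, a TRIM family E3 ligase gene, had 379, 188, 319 and 193 in WT control and 473, 906, 1261 and 1113 in WT ezetimibe, against 124, 113 and 274 in KO control and 609, 679, 560.4 and 216 in KO ezetimibe. It had the second highest WT difference of the 36, 1.77 ± 0.39, and was 1.59 ± 0.42 in KO (limma adjusted p = 0.115 and 0.062). Rtp4, a chaperone of G-protein-coupled receptors, had 309, 214, 277 and 254 in WT control and 469.9, 733, 757 and 707 in WT ezetimibe, against 231, 166 and 325 in KO control and 633, 546, 407 and 241 in KO ezetimibe. Its difference was 1.32 ± 0.27 in WT and 0.89 ± 0.29 in KO (limma adjusted p = 0.0615 and 0.0952), with no overlap in WT. Bst2, the virion tether tetherin, had 172, 143, 157 and 192 in WT control and 244, 419, 308 and 321 in WT ezetimibe, against 87.7, 109 and 125 in KO control and 239.9, 281, 184 and 96.9 in KO ezetimibe. Its differences were 0.94 ± 0.26 and 0.81 ± 0.28. Rsad2, which encodes viperin, and Cmpk2, a mitochondrial nucleotide kinase encoded beside it, had averages of 253 ± 78.8 and 863 ± 258 in WT control (SD, n = 4) and 463 ± 139 and 1314 ± 229 in WT ezetimibe (n = 4), with overlap between diets for both. Samd9l, a growth-restricting antiviral gene, rose by 0.67 ± 0.16.

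PARP9 and the ubiquitin ligase DTX3L form a complex, PARP14 is an ADP-ribosyltransferase, and all 3 genes rose, with medians of 0.67 in WT and 0.87 in KO. Parp14 had normalised counts of 2805, 2157, 2676 and 1743 in WT control and 4178, 3661, 3593 and 3265 in WT ezetimibe, against 2142, 1162 and 2554 in KO control and 4219, 4732, 5623 and 2163 in KO ezetimibe. WT diets were separate, and KO ezetimibe replicate 4 was near KO control replicate 1. The differences were 0.67 ± 0.27 in WT and 1.09 ± 0.29 in KO (SE, limma adjusted p = 0.834 and 0.062). Parp9 and Dtx3l, which start from a shared region on opposite strands, had a Pearson r of 0.96 over the 15 libraries. They rose by 0.55 ± 0.13 and 0.79 ± 0.18. Their annotated spans overlap, and with no strand setting stated, reads in the overlap may be counted to either gene.

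Of the other 5 induced genes, 4 rose and Ifi27l2a did not pass. Ifi44, whose GTP-binding product is strongly interferon-inducible, had normalised counts of 116, 61.8, 77.3 and 57.1 in WT control and 166, 387, 531 and 457 in WT ezetimibe, against 11.4, 38.0 and 98.6 in KO control and 302, 239, 306 and 51.1 in KO ezetimibe. The KO control libraries were far apart from each other, KO ezetimibe replicate 4 lay among them, and WT diets were separate. Its differences, 2.22 ± 0.61 in WT and 2.35 ± 0.66 in KO, were the largest of the 36 but did not pass in either genotype (SE, limma adjusted p = 0.348 and 0.0684). Lgals3bp, a secreted galectin-binding glycoprotein (chr11:118392751-118402092, reverse strand, GRCm38), had 3547, 2731, 3434 and 3022 in WT control and 4161, 5133, 5490.1 and 5335 in WT ezetimibe, against 2698, 2544 and 3385 in KO control and 5364, 5738, 5029 and 3465 in KO ezetimibe. It was the most abundant of the 36 per length in WT control, and no diet overlap was seen in either genotype, though in KO the lowest ezetimibe library and the highest control library were close. The difference was 0.75 ± 0.16 in KO (SE, limma adjusted p = 0.0489) and 0.66 ± 0.15 in WT (adjusted p = 0.133). The KO call held without KO control replicate 3 or KO ezetimibe replicate 4 and was lost without any 1 of the other 5 KO libraries, and of the 8 WT libraries it held without WT control replicate 1 alone. It was also lost with a pseudocount of 5 (limma adjusted p = 0.0505), without the filter (0.0562), with quantile normalisation (0.0542), with limma-voom (0.0563) and in a fit of the compared groups alone (0.129), and edgeR gave an adjusted p of 0.0499. Xaf1, an antagonist of the apoptosis inhibitor XIAP, rose by 1.10 ± 0.19 and Ifi35 by 0.30 ± 0.07. Ifi35 had 1042, 988, 1043 and 884 in WT control and 1243, 1318, 1413 and 1289 in WT ezetimibe, against 1058, 1059 and 1108 in KO control and 1391, 1154, 1323 and 1049 in KO ezetimibe, a small and even step in WT and an overlap in KO. Ifi27l2a ranged from 3.20 to 33.8 normalised counts over all libraries, the lowest counts of the 36.

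Between KO and WT, none of the 36 genes passed the test on either diet. On the control diet limma called 0 (0.371% of all genes were called), and 3 were lower at an unadjusted p under 0.05 (7.86% of all genes were): Usp18 at −0.93 ± 0.39, Bst2 at −0.63 ± 0.28 and Mx2 at −0.79 ± 0.37 (KO minus WT, log2, SE, limma adjusted p = 0.275, 0.306 and 0.338). The next by p were Herc6 at −0.73 ± 0.38, Zbp1 at −0.84 ± 0.47 and Trim30a at −0.71 ± 0.42. With edgeR, DESeq2 and limma-voom the count was also 0 (0.0839%, 3.16% and 0.0699% of all genes), and 2, 2 and 0 genes were below the unadjusted threshold (14.9%, 15.1% and 14.9% of all genes). The sign was negative for 32 of 36 genes (50.9% of all genes), with a median of −0.24 that became −0.06 without KO control replicate 2 and −0.46 without KO control replicate 3. KO libraries were all lower than WT libraries for Bst2 (5.57% of all genes) and all higher for Ifi35 (6.59%).

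Under ezetimibe limma again called 0 of the 36 (0.00699% of all genes), with 8 lower and 1 higher at an unadjusted p under 0.05 (8.3% and 8.15% of all genes). edgeR, DESeq2 and limma-voom called 0 (0.00699%, 0.545% and 0.00699% of all genes), with 9, 10 and 11 below the unadjusted threshold (16.3%, 17% and 15.4% of all genes). The smallest p-values were those of Bst2 at −0.76 ± 0.26, Mx1 at 0.68 ± 0.23, Ifit2 at −0.99 ± 0.35, Mx2 at −0.96 ± 0.35, Isg15 at −0.66 ± 0.26 and Oas1a at −0.73 ± 0.30 (KO minus WT, log2, SE), with limma adjusted p between 0.237 and 0.276. Mx1 was the one that was higher in KO. KO libraries were all below WT libraries for Ifit2 and Mx2, beside 4.84% of all genes, and above them for none, beside 5.09%. The median of −0.34 became −0.04 without KO ezetimibe replicate 4. Averaged over diets, a comparison also chosen after seeing the data, limma called 0 (4.04% of all genes) with 12 lower at an unadjusted p under 0.05 (11.8% of all genes), edgeR and limma-voom called 0 (3.85% and 3.11%) with 11 and 10 below that threshold in either direction (22.2% and 21.6%), and DESeq2 called 3 (8.64%). The authors' deposited tables of KO against WT, which list 424 genes on the control diet and 72 under ezetimibe, hold none of the 36.

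The diet difference was not shown to depend on genotype. The interaction, the difference in KO minus that in WT, called 0 of the 36 genes with limma, edgeR, DESeq2 and limma-voom, and those tools called 0%, 0%, 0.035% and 0% of all genes. One gene, Mx1, was below an unadjusted p of 0.05 with each of these tools, beside 7.02% of all genes with limma, at 0.78 ± 0.34 (log2, SE, limma adjusted p = 0.681). The next by p were Ifi35 at −0.23 ± 0.14, Ifit2 at −0.76 ± 0.52, Dhx58 at −0.52 ± 0.41, Rtp4 at −0.44 ± 0.39 and Parp14 at 0.42 ± 0.40. The median over the 36 was −0.00036, with 18 genes on each side of 0. Leaving out 1 library moved this median between −0.15 and 0.21, the upper end without KO ezetimibe replicate 4. Across the 36 genes the WT and KO diet differences, which share no library, had a Pearson r of 0.80. The SE of the interaction ran from 0.14 for Ifi35 to 0.90 for Ifi44. Even the 0.78 ± 0.34 of Mx1 was not called after adjustment, so differences between genotypes well above their SE could not be told from 0 with 3 or 4 libraries a group.

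The ligands themselves were barely measured. Of 19 interferon genes listed, 4 had any counts, Ifne, Ifnk, Ifnl2 and Ifng, none above 6.43 normalised counts in a library, and none passed the filter. The 6 receptor genes were all tested and none was called in any comparison by limma. Ifnlr1, the type III receptor chain, had 767, 672, 729 and 671 in WT control, 721, 699, 701 and 707 in WT ezetimibe, 578, 582 and 659.6 in KO control and 736, 716, 875 and 853 in KO ezetimibe. Its WT values were level between diets, and its KO ezetimibe libraries, replicate 4 included, were all above the KO control libraries. The log2 difference was −0.0041 ± 0.09 in WT and 0.39 ± 0.09 in KO (SE, limma adjusted p = 0.999 and 0.0553), and the interaction was 0.39 ± 0.13 (adjusted p = 0.681). Ifnar1 was 0.00 ± 0.12 in WT and 0.07 ± 0.13 in KO, and Ifnar2 0.22 ± 0.14 and −0.13 ± 0.15.

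Downstream of the receptors, none of 10 signalling genes was called within a genotype, and Irf8, a transcription factor of myeloid cells, was among those that rose in the averaged diet comparison, at 0.47 ± 0.12 (limma adjusted p = 0.0496). Of 8 inhibitors, Nlrc5, a regulator of MHC class I genes that also restrains sensor signalling, rose by 1.38 ± 0.29 (limma adjusted p = 0.023), and the feedback inhibitor Socs1 was 0.64 ± 0.16 (adjusted p = 0.0502). Of 14 further nucleic acid sensors and editors tested, 3 rose (1.74% of all genes did): Ddx58, which encodes RIG-I, at 0.60 ± 0.12, the RNA editor Adar at 0.58 ± 0.12 and the nucleotide hydrolase Samhd1 at 0.64 ± 0.13. A wider list of 46 tested interferon-responsive genes had 1 called in WT, Parp10 at 0.47 ± 0.08, and 2 in KO, Sp100 at 0.93 ± 0.18 and Rnf213 at 1.39 ± 0.30 (limma adjusted p = 0.0172, 0.0423 and 0.049). Of all genes, 0.217% were called in WT and 0.727% in KO. In the averaged diet comparison 26 of the 46 rose and 0 fell, with a median of 0.58, beside 1.74% of all genes that rose. Averaged over diets, 5 of the 46 were lower in KO (4.04% of all genes were called in either direction): Mndal at −0.72 ± 0.13, Sp110 at −0.74 ± 0.14, Ifitm3 at −0.996 ± 0.23, Mlkl at −0.54 ± 0.13 and Ifi203 at −0.59 ± 0.14. The authors' deposited table for the control diet lists 3 of these as lower in KO, Sp110 at −0.80, Mndal at −0.79 and Ifi203 at −0.76.

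Genes better known from the interferon gamma response, 18 immunity-related GTPases, guanylate-binding proteins and antigen presentation or chemokine genes, were tested as a comparison. The difference with ezetimibe was above 0 for all 18 in both genotypes (47.7% of all genes in WT and 50.7% in KO), with medians of 0.59 in WT and 1.07 in KO. One passed in KO, Igtp, at 2.22 ± 0.45 (SE, limma adjusted p = 0.0431), beside 0.727% of all genes. In the averaged comparison 6 rose, beside 1.74% of all genes. Igtp, a GTPase of vacuole defence, had 781, 439, 822 and 496 in WT control, 2076, 2187, 2692 and 1200.5 in WT ezetimibe, 247, 299 and 626 in KO control and 2026, 1825, 3256 and 654 in KO ezetimibe. KO was below WT on the control diet for all 18 genes (median −0.64), as it was for 50.9% of all genes, with none called (0.371% of all genes were). Averaged over diets, Cxcl9, a chemokine that draws T cells, was lower in KO at −0.96 ± 0.24 (limma adjusted p = 0.0402).

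Within the 36, levels per kilobase of exon in WT control ran from 1118 ± 132 normalised counts per kb (SD, n = 4) for Lgals3bp, followed by Oasl1 at 913 ± 223, Isg15 at 733 ± 168, Ifi35 at 573 ± 43.1 and Irf7 at 551 ± 134, down to 7.62 ± 2.06 for Ifit2. Each of the first 4 genes overlapped the next in this order within their SDs. With ezetimibe Isg15 reached 1944 ± 471 per kb in WT and had the highest mean of the 36 there, with Lgals3bp at 1767 ± 209.9, and the SDs of the pair overlapped. In KO ezetimibe Lgals3bp was first at 1721 ± 351 and Oasl1, at 1260 ± 373, and Isg15, at 1254 ± 376, were level.

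The genes moved together from library to library, also within groups. As a description over the 15 libraries, after the group mean was taken from each value, the Pearson r of a gene with the mean of the other 35 was 0.96 for Oasl2, Lgals3bp, Isg15 and Trim30a and at least 0.65 in all but 3 genes. It was 0.48 for Rsad2, 0.22 for Ifi27l2a and 0.17 for Oasl1. The libraries share the same depth scaling and the value of each library enters all genes at once. KO ezetimibe replicate 4, the lowest of its group for 35 of the 36 genes, enters each r, and no r without it was computed. Among all other tested genes, those whose log2 level was most like the mean of the 36 were Ifit1bl1 (r = 0.99), Trim12a (0.99), Parp11 (0.98), Rnf213 (0.98), Sp100 (0.97), Trim34a, Ddx60, Igtp, Tap1 and Spats2l (each 0.94). Ifit1bl1 and Ifit1 are related in sequence, and whether they share reads was not tested.

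Markers of other cell types moved with some of these results. The summed normalised count of 14 T and NK cell markers, all with counts, was 8056, 5124, 8068 and 4836 in the WT control libraries and 9403, 8491, 9530.3 and 6915 in WT ezetimibe, which overlapped. It was 3737, 5020.2 and 3999.9 in KO control and 5734, 5791, 7110.5 and 5179 in KO ezetimibe, which did not. Over the 15 libraries the log2 sum had a Pearson r of 0.68 with the mean level of the 36 genes. For the other marker lists this r ran from −0.59 (B and plasma cells) to 0.38 (tuft cells), with −0.51 for macrophage and dendritic markers. The sum of KO ezetimibe replicate 4 was the lowest of its group, as was its interferon level. At 5179, however, its sum lay above every KO control library, whereas its interferon level lay among them. The sum of 12 macrophage and dendritic markers, none at 0 throughout, was 769 to 1044 in KO control and 228 to 517 in KO ezetimibe, with 1 of 10 tested markers lower by limma (0.727% of all genes were called in either direction), and 515 to 1401 against 515 to 841 in WT. The 7 plasmacytoid dendritic markers, of a cell type known as a main source of type I interferon, summed to 832 to 944 in WT control, 809 to 905 in WT ezetimibe, 741 to 858 in KO control and 747 to 866 in KO ezetimibe. Most of this sum came from Klk1, at 313 to 525 per library, and Tcf4, at 143 to 234. Siglech was 3.20 to 20.4 and Cox6a2 2.06 to 21.1, so the sum is a poor measure of these cells. The 8 Paneth markers spanned 21378 to 72283 in WT control and 10169 to 42478 in WT ezetimibe, against 11487 to 19134 in KO control and 9398 to 16451 in KO ezetimibe. The 10 proliferation markers summed to 1533 to 3813 in WT control and 1607 to 2432 in WT ezetimibe. In KO they summed to 678 to 1278 on the control diet and 1117 to 1502 with ezetimibe. On the control diet 3 of the 10 were lower in KO by limma (0.371% of all genes were called), and under ezetimibe 0 (0.00699%). The part of these cell types and of proliferation in the diet difference was not tested.

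Enterocyte markers, 12 genes, summed to between 846163 and 1260660 in every library and 4 ileal enterocyte markers to between 6970 and 13025. The 13025 was that of KO ezetimibe replicate 3, and the next highest library had 10252. In replicate 3 Fabp6 was 2535, against 47.4 to 601 in all other libraries, and Slc10a2 was 2811, against 814 to 2078. Slc51a and Slc51b were not highest there. The part of gut position in the result was not tested. Dbp, a clock output gene that differs with the hour of tissue collection, ranged from 49.5 to 867 in WT control and from 41.3 to 911 in WT ezetimibe. In KO it ranged from 69.0 to 278 on the control diet and from 228 to 398 with ezetimibe. KO ezetimibe replicates 1, 3 and 4 lay above every KO control library, and replicate 2 did not. The log2 level of Dbp had a Pearson r with the mean level of the 36 genes of −0.0033 over the 15 libraries and −0.13 after the group means were taken out. The part of collection time in the result was not tested.

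**Figure D5:**
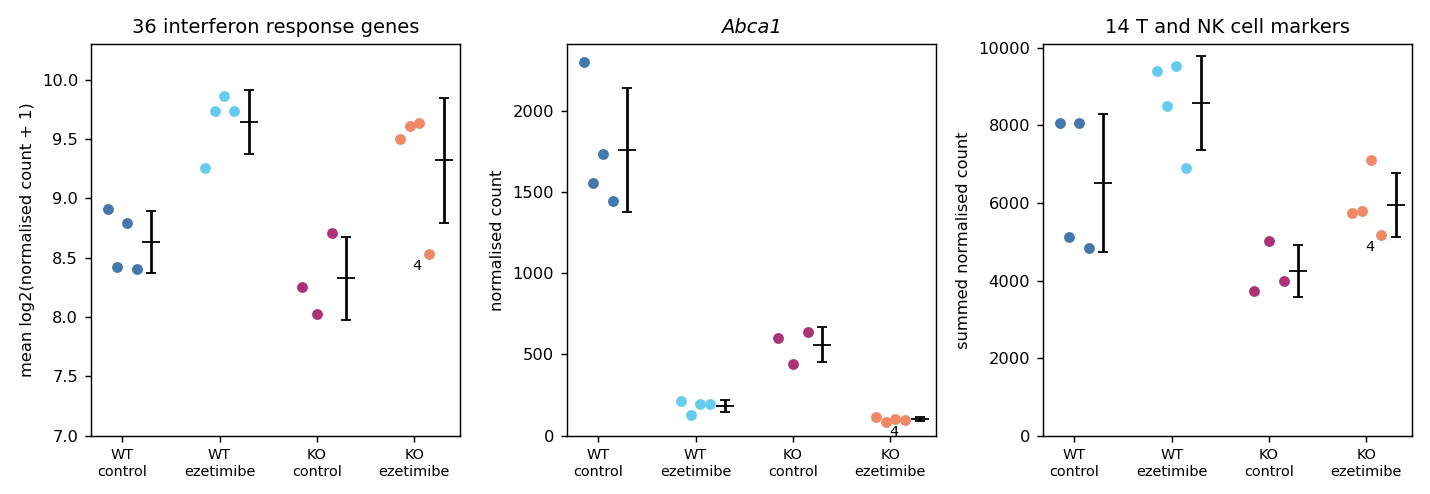
Mean log2(normalised count + 1) of the 36 genes (left), normalised count of Abca1 (middle) and summed normalised count of 14 T and NK cell markers (right) in each library (points), with group mean and SD (bars). KO ezetimibe replicate 4, marked 4, has 8.53 on the left, within the control-diet range, while its Abca1 of 98.0 is among the other KO ezetimibe libraries.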

How the data were processed

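RNA-seq was made from TRIzol-extracted RNA of frozen distal jejunum with the NEBNext Ultra II kit, per the labels' protocols. STAR 2.6.0c, DESeq2, FastQC and mm10 are named in the submitters' processing notes. Neither a strand setting nor a counting tool is stated in the sources used here, and reads of overlapping genes on opposite strands cannot be told apart. The authors' deposited signal was a normalised count, reads per gene divided by a size factor per library; dividing by the smallest value above 0 in a library gave whole reads for 100% of values (tolerance 0.01), 13855034 to 19307079 per library. The authors also deposited log2 fold changes, linear fold changes, a Wald score and p-values of KO against WT for genes that passed their threshold, per the file headers; these were used to look up the 36 genes and the list genes.

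All 26844 genes entered the filter (a normalised count of at least 10 in at least 3 libraries), and 14299 were tested. limma 3.58.1 (R 4.3.3) fitted log2(normalised count + 1) in all 15 libraries with 1 mean per group, a mean-variance trend and Benjamini-Hochberg adjustment over all genes tested; an adjusted p under 0.05 is a call. Recovery was tested on simulated data with the same dispersion for every gene. The 36 genes spread more widely between libraries than the median gene, so that simulation does not speak for them. edgeR 4.0.16, DESeq2 1.42.0 and limma-voom on recovered reads were alternatives, with other pseudocounts (0.5 and 5), filters and scalings, a replicate block, and each library left out. The diet effect averaged over genotypes, the genotype effect averaged over diets, the joint removal of 2 libraries, the removal of libraries outside the groups compared, and the Dbp values were added after seeing the data. The 36 genes and the lists were chosen with earlier results of these data known. Values in every library are given for genes called in any of 5 contrasts or among the 6 smallest p of one, and for chosen list genes; from the pathway lists, called genes and up to 3 with the smallest p are named. Ifi44, Ifnar1 and Ifnar2 were singled out after their values were seen. Genes with near-identical copies are uncertain. Levels per kilobase used the summed exon length of GENCODE M21 (GRCm38); promoter sequences are from RefSeq. No sequence is shown for genes without an entry. One signalling gene is not reported here.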

Additional observations from a re-analysis of the deposited data

Results flagged for a closer look

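In groups of 4 libraries, 5 of 111 sets of values had one library far from the other 3 by Dixon's criterion at the 95% level, and chance alone gives about 1 in 20. The mean log2 level of the 36 genes in KO ezetimibe replicate 4 was 8.53, the lowest of its group. Irf9 in the same library was 838 normalised counts, the lowest of its group. Irf9 in WT ezetimibe replicate 1 was 856 normalised counts, also the lowest of its group. Dtx3l in WT ezetimibe replicate 3 was 2365 normalised counts, the highest of its group. Ifi27l2a in WT control replicate 2 was 25.4 normalised counts, the highest of its group.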

How the results depend on the processing

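No alternative reversed the direction of a called value. The number of the 36 genes called between diets moved most. The share of all genes called stands in brackets, and a mean of at least 50 left 34 of the 36 genes to test. In WT, where limma called 1 (0.217%), it was 5 without the filter (0.153%), 5 with quantile normalisation (0.28%), 8 with the compared groups alone (0.26%), 4 with edgeR (0.238%), 22 with DESeq2 (0.65%) and 18 (0.416%) without WT ezetimibe replicate 1 and KO ezetimibe replicate 4 together, a setting chosen after seeing the data. In KO, where limma called 2 (0.727%), it was 1 with a pseudocount of 5 (0.559%), 1 without the filter (0.201%), 13 with a mean of at least 50 (3.27%), 1 with quantile normalisation (0.608%), 0 with the compared groups alone (0.104%), 25 with DESeq2 (8.08%), 0 with limma-voom (0.287%; 32 at an unadjusted p under 0.05, beside 22.8% of all genes) and 25 (1.75%) without those 2 libraries. Leaving out 1 of the 15 libraries gave 0 to 14 in WT (0.119% to 0.421%) and 0 to 26 in KO (0.0351% to 3.2%). Averaged over diets, KO against WT had 1 call with a mean of at least 50 (5.22%), 3 with DESeq2 (8.64%), and 0 to 1 with 1 library left out (0.231% to 8.47%). The median difference between diets stayed between 0.93 and 1.15 in WT and between 0.74 and 1.14 in KO with 1 library left out. Calls in single genotypes therefore depend on the setting and on single libraries, and the cause was not tested.

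With the replicate number as a block, limma called 4 genes in WT (0.378%), 28 in KO (13.4%) and 2 between genotypes averaged over diets (6.45%). The numbers were not shown to pair libraries: 12 of 21 same-number pairs had a correlation of deviations above 0.1 (range −0.24 to 0.33), and not every library correlated best with its own number. TMM and quantile scaling moved the median of all genes by less than 0.1 on the log2 scale. The SE of the difference between diets ran from 0.09 (Ifi35) to 0.61 (Ifi44) in WT and from 0.10 to 0.66 for the same genes in KO, which with 3 or 4 libraries a group limits what could be detected.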
